A study of Homo sapiens with 9 samples.

Results

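The long noncoding RNA genes MALAT1, NEAT1, KCNQ1OT1, TUG1, PVT1, OIP5-AS1, MIR17HG, SNHG14, LINC-PINT and HCG18 were followed in UPCI-SCC-040, an oral squamous cell carcinoma line taken from the tongue. They were taken by symbol from GENCODE release 29, and were chosen by their levels in these libraries, with attention to the 72 h library of passage 8, where MALAT1 and NEAT1 stood high. The 10 symbols match 11 of the 58233 gene identifiers in the count files, because 2 identifiers carry the symbol LINC-PINT. All 11 had enough counts to be tested. The study treated the cells with transforming growth factor beta 1 (TGF-β1) and asked which genes changed in expression. The groups, each of 3 libraries of total RNA, were controls with no TGF-β1, a 48 h group and a 72 h group, both at 5 ng/ml. Replicates 1, 2 and 3 of every group came from passages 12, 13 and 8. The medium of treated cells lacked serum and antibiotics, while the titles of the controls carry 0 h and the labels do not say that controls went without serum. Effects of TGF-β1, of losing serum and of time therefore cannot be told apart in any comparison with controls. Passage is the only label that separates the replicates, all of 1 cell line, so p-values measure the spread between these libraries.

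Long noncoding RNAs are transcripts without a known protein product. MALAT1 is an abundant nuclear RNA that gathers at nuclear speckles, the stores of splicing factors, and NEAT1 is the RNA scaffold of paraspeckles, nuclear bodies built on its long isoform by proteins such as NONO and SFPQ. KCNQ1OT1 and SNHG14 are read from the paternal copy of imprinted regions and lie antisense to KCNQ1 and UBE3A. TUG1 was first described as a gene raised by taurine in mouse retina, and PVT1 lies near MYC, with which it is often co-amplified in tumours. OIP5-AS1, also called cyrano, carries a site for miR-7, MIR17HG is the primary transcript of the miR-17-92 cluster, LINC-PINT is a p53-induced RNA and HCG18 lies in the major histocompatibility complex. In bulk RNA, a change in a cell's RNA and a change in the mix of cells cannot be told apart.

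Library totals ran from 12544690 to 20438727 counts. All 8 squamous epithelial markers (such as KRT5, KRT14 and TP63) averaged at least 1 CPM (counts scaled to a common library size, with sizes adjusted by the trimmed mean of M-values, TMM), and their sum ran from 10523 to 18984 CPM in controls, from 23580 to 29619 CPM at 48 h and from 15215 to 24574 CPM at 72 h. All 4 leukocyte markers and all 4 endothelial markers averaged below 1 CPM. Of 6 fibroblast markers 2 averaged above it (COL1A1 and COL1A2), the list summed to 10.1 to 12.6 CPM in controls, 36.1 to 89.6 CPM at 48 h, and 20.1 to 111 CPM at 72 h, while LUM and DCN had at most 9 counts in all. The third 72 h library, of passage 8, guided the choice of the genes, so tests were made without it on the other 8 libraries. Its values are given as a description. That library also differed most from its group. The genes were chosen with levels in the other 8 libraries known too, so the tests are not independent of that choice.

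MALAT1 and NEAT1 lie next to each other on chromosome 11 (GRCh38), at chr11:65497688-65506516 and chr11:65422774-65445540, both on the plus strand and each a single block of exon sequence of 8829 and 22767 bases. They share the way their 3′ ends are made, which is why these ends are shown. A transfer-RNA-like structure is cut off just downstream, and a triple helix of U-rich and A-rich stretches protects the new end. In the genomic letters below, from GENCODE 29 transcripts, the capitals mark the first U-rich stretch, the shared run around the second, and the A-rich tract at the end.
MALAT1-202, chr11:65506021-65506116: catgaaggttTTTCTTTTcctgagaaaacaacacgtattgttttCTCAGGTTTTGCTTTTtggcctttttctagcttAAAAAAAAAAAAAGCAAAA
NEAT1-202, chr11:65445443-65445540: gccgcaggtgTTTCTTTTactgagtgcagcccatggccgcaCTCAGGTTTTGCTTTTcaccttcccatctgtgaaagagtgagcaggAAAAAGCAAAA
The run of 16 bases that holds the second U-rich stretch is identical in both. Of 206694 annotated transcripts 2 held it, MALAT1 and NEAT1. In both genes the annotated transfer-RNA-like element begins 1 base after the A-rich tract, and it is 57 bases long at MALAT1 and 58 at NEAT1.

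MIR17HG (chr13:91347820-91354579, plus strand) carries 6 mature microRNAs of the miR-17-92 cluster in 4 seed groups, and the identifier ENSG00000226380 of LINC-PINT holds the whole miR-29b-1 hairpin, of 81 bases, in its exons. The miR-29a hairpin shares only 2 bases with them. The microRNAs themselves were not measured. Those of the miR-17-92 cluster and miR-29b are shown because they lie within the host genes followed here. The mature miR-29a lies outside ENSG00000226380 and is shown for the seed that it shares with miR-29b. The sequences are from RefSeq (GRCh38.p14) and the capitals mark the seed, bases 2 to 8.
hsa-miR-17-5p: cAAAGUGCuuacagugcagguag
hsa-miR-20a-5p: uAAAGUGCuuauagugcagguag
hsa-miR-18a-5p: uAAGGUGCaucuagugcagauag
hsa-miR-19a-3p: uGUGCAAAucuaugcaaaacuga
hsa-miR-19b-3p: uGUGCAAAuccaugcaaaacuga
hsa-miR-92a-3p: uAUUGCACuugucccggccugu
hsa-miR-29b-3p: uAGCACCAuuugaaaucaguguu
hsa-miR-29a-3p: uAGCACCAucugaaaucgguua
miR-17 and miR-20a share the seed AAAGUGC, miR-19a and miR-19b share GUGCAAA, and miR-29a and miR-29b share AGCACCA. miR-18a differs from the first pair within the seed, and miR-92a has the seed AUUGCAC.

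The 2 LINC-PINT identifiers begin far apart on chromosome 7, minus strand. ENSG00000231721 spans chr7:130938963-131110176 and ENSG00000226380 spans chr7:130876809-130913310, downstream of it. Their start regions, 250 bases before to 50 after the nearest RefSeq start, are shown because the 2 identifiers start apart and stood on opposite sides of the other 72 h libraries in 1 library, 72 h passage 8. Against controls, both had positive log2 differences at 48 h and in 72 h replicates 1 and 2. For ENSG00000226380 the RefSeq start is also the first base of the GENCODE gene. For ENSG00000231721 the whole stretch lies inside the GENCODE gene, and the bases upstream of that gene are not shown. The 2 stretches therefore differ in their position relative to the annotated genes. Letters are from RefSeq (GRCh38.p14), read on the minus strand, and capitals mark, on either strand, TGANTCA (AP-1), CACGTG (E-box), GGGCGG (GC box) and the CCAAT box.
LINC-PINT ENSG00000226380, chr7:130913261-130913560: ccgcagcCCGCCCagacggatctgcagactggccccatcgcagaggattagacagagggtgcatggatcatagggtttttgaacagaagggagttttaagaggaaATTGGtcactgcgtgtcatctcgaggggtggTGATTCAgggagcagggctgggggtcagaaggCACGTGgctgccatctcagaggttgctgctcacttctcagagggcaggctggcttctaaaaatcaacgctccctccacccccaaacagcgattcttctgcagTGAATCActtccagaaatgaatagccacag
LINC-PINT ENSG00000231721, chr7:131109876-131110175: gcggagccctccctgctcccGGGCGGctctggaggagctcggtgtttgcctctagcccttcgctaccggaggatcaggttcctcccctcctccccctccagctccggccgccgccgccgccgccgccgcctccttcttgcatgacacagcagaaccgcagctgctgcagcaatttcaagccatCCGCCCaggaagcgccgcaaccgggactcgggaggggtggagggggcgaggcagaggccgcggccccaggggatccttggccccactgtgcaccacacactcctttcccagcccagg
The ENSG00000226380 start held TGANTCA at 2 places, 114 bases before and 20 after the start, and 1 match each to the E-box, the GC box and the CCAAT box. The ENSG00000231721 start held GGGCGG at 2 places and no other of these motifs. Of 35116 promoters of the same length 7.71% held TGANTCA, 7.26% held CACGTG, 45.0% held GGGCGG and 34.6% held CCAAT. The SMAD-type letters CAGACA, also searched, were in neither LINC-PINT start and in 16.9% of those promoters. A match to these letters is not a binding site.

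The listed RNAs covered a wide range of levels. Per kilobase of exon, the median over 9 libraries was 493 CPM for MALAT1 (268 to 1764), 34.2 for NEAT1 (12.6 to 196) and 15.9 for OIP5-AS1 (9.20 to 19.1). On the same scale TUG1 had a median of 8.44 (7.19 to 9.86), LINC-PINT ENSG00000226380 3.71 (2.63 to 9.14) and HCG18 3.50 (2.68 to 4.35). MIR17HG followed at 1.84 (0.865 to 2.78), LINC-PINT ENSG00000231721 at 1.61 (1.18 to 4.50), PVT1 at 1.12 (0.785 to 2.07), SNHG14 at 0.784 (0.455 to 1.28) and KCNQ1OT1 at 0.205 (0.112 to 0.332). The lowest MALAT1 library lay above the highest NEAT1 library and the highest KCNQ1OT1 library below the lowest SNHG14 library, while the ranges of all other neighbours in this order overlapped. Exon length counts every annotated base, such as the 22767 bases of NEAT1, the 91667 of KCNQ1OT1 and the 137 exon blocks of SNHG14. A partly used annotation thus lowers the level per kilobase. Counts are per gene, so the long isoform of NEAT1 was not measured apart from its other transcripts.

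**Figure D1:**
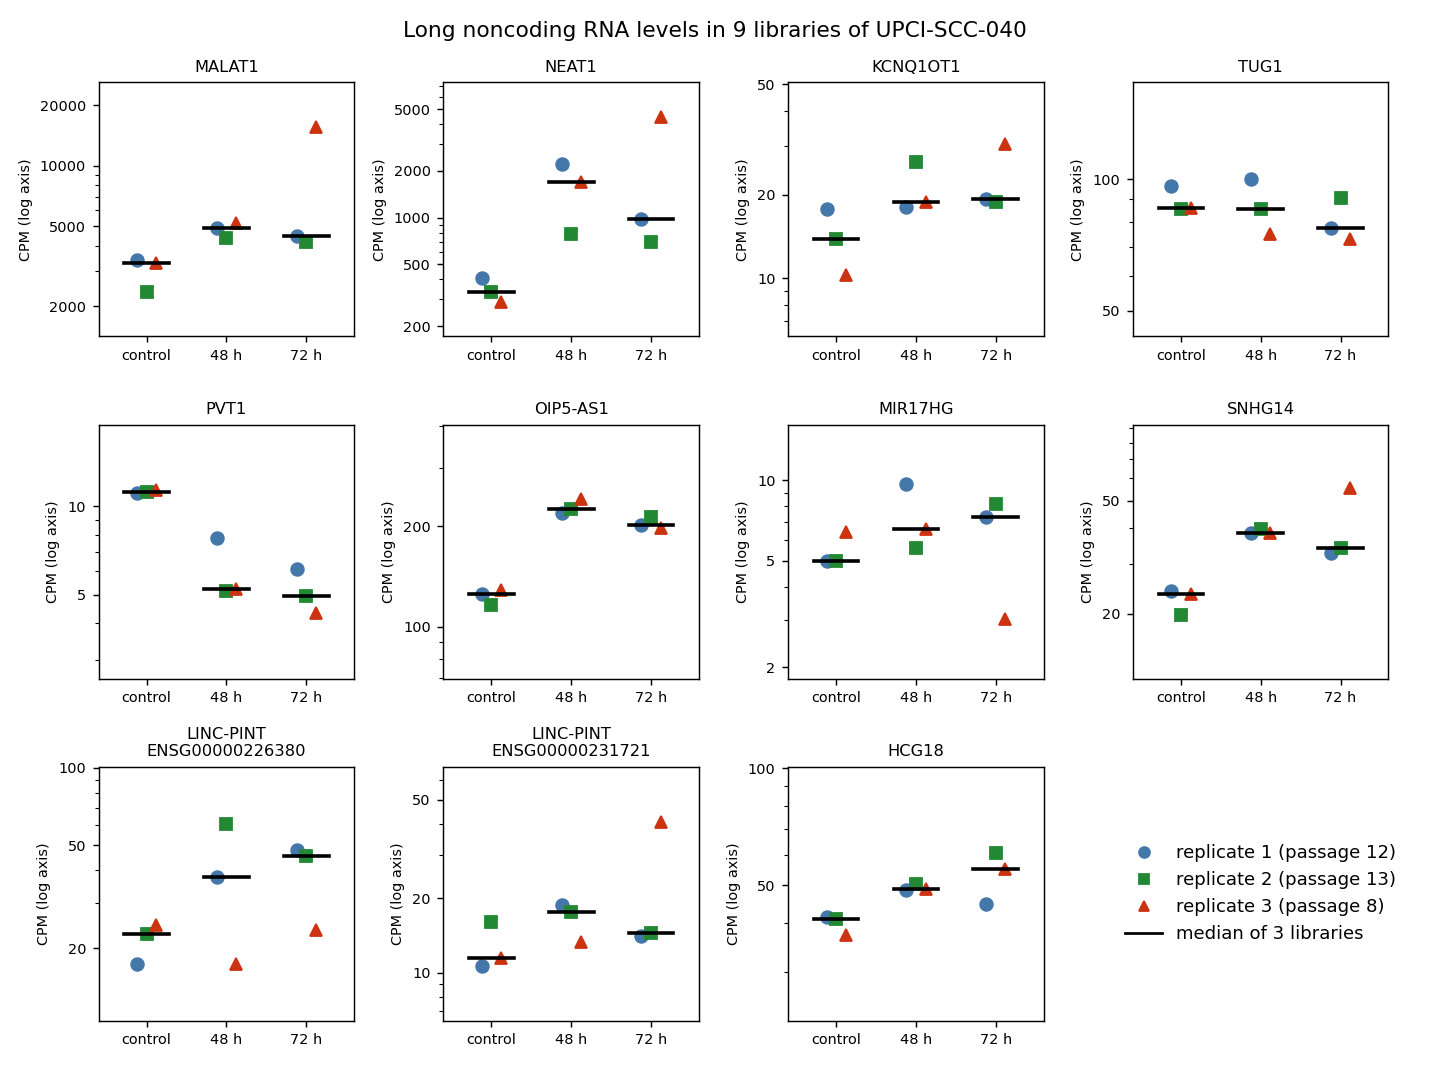
CPM on a log axis for the 11 identifiers in the 9 libraries of controls, 48 h and 72 h TGF-β1; the marker shape and colour give the replicate and its passage, and the bar is the median of the 3 libraries of a group. MALAT1 at 15577 and NEAT1 at 4462 CPM in the 72 h library of passage 8 (red triangle) lie far above the other 72 h libraries, while TUG1 stays between 73.0 and 100.0 CPM in all 9.

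After 48 h of TGF-β1 the nuclear-body RNAs MALAT1 and NEAT1, the imprinted RNAs KCNQ1OT1 and SNHG14, and OIP5-AS1 were higher than in controls, and PVT1 was lower. NEAT1 had the largest difference of the 11 identifiers. With edgeR's quasi-likelihood F test, adjusted by Benjamini-Hochberg over 15842 genes, 6 of 11 identifiers passed 0.05, where 39.7% of all tested genes did (19.6% higher and 20.1% lower). The remaining 5, among them TUG1, MIR17HG and both LINC-PINT identifiers, did not pass. In 7 of 11 the 48 h and control libraries did not overlap, 6 above and 1 below controls, where 53.7% of genes did not (25.6% above and 28.1% below).

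MALAT1 had 4905, 4352 and 5176 CPM in the 48 h libraries, against 3412, 2368 and 3271 CPM in controls. All 3 treated libraries lay above all controls, of which replicate 2 was the lowest. It rose by 0.68 ± 0.18 on the log2 scale (SE, n = 3 each, edgeR adjusted p = 0.0144). Without control replicate 2 the adjusted p was 0.0590 and with the 72 h passage 8 library in the same edgeR model it was 0.295.

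NEAT1 had 2229, 779 and 1704 CPM at 48 h, against 406, 333 and 287 CPM in controls. The groups did not overlap, and 48 h replicate 2 lay well below the other treated libraries. NEAT1 rose by 2.20 ± 0.36 (log2, SE, n = 3 each, edgeR adjusted p = 0.00165), and its mean at 48 h, 1571 ± 734 CPM, stood against 342 ± 60.1 CPM in controls (SD, n = 3 each). The direction and call held in all 16 alternative settings, with log2 fold changes of 1.87 to 2.53.

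The imprinted transcripts moved the same way. SNHG14, the long host of snoRNA genes between SNRPN and UBE3A, had 38.4, 39.6 and 38.6 CPM at 48 h, against 24.1, 19.7 and 23.5 CPM in controls. The treated libraries were nearly equal and all above controls, a rise of 0.80 ± 0.12 on the log2 scale (SE, n = 3 each, edgeR adjusted p = 0.000657). KCNQ1OT1 had 18.1, 26.1 and 18.8 CPM at 48 h, against 17.8, 13.8 and 10.3 CPM in controls. Its lowest treated library lay just above the highest control. The rise of 0.59 ± 0.21 (log2, edgeR adjusted p = 0.0480, n = 3 each) was lost in 8 of 16 alternatives, namely without control replicate 2 or 3, without any 1 of the 3 48 h or the 2 tested 72 h libraries, and with all 9 libraries, with edgeR adjusted p up to 0.163.

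OIP5-AS1 had 220, 225 and 242 CPM at 48 h, against 126, 117 and 129 CPM in controls. The groups were far apart relative to the spread within them, and it rose by 0.89 ± 0.11 (log2, SE, n = 3 each, edgeR adjusted p = 0.000250), the smallest adjusted p of the 11. PVT1 had 7.81, 5.14 and 5.21 CPM at 48 h, against 11.1, 11.2 and 11.4 CPM in controls. Controls were nearly equal and all above the treated libraries, of which replicate 1 was the highest. PVT1 fell by 0.88 on the log2 scale (SE 0.20, n = 3 each, edgeR adjusted p = 0.00614). Both calls held in all 16 alternatives.

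HCG18, TUG1, MIR17HG and the LINC-PINT identifiers did not pass the test at 48 h. HCG18 had 48.7, 50.3 and 49.0 CPM at 48 h, against 41.5, 41.0 and 37.3 CPM in controls. Its groups did not overlap, but the log2 difference of 0.31 ± 0.13 had an edgeR adjusted p of 0.0806 (n = 3 each). It passed without 72 h replicate 1 (edgeR adjusted p = 0.0401) or 2 (0.0307), with upper-quartile factors (0.0453) and in a model of the 2 groups alone (0.0233). TUG1 had 100.0, 85.7 and 74.9 CPM, against 96.4, 85.7 and 86.1 CPM in controls, with a log2 difference of -0.04 and a 95% interval of -0.33 to 0.25. The TUG1 groups overlapped and the interval leaves room for a small change either way. MIR17HG had 9.71, 5.57 and 6.59 CPM, against 4.99, 4.98 and 6.44 CPM in controls, groups that overlapped at low counts (955 over all libraries).

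Neither LINC-PINT identifier passed. ENSG00000226380 had 37.8, 60.5 and 17.4 CPM at 48 h, against 17.4, 22.7 and 24.5 CPM in controls. Treated replicates 1 and 2 were above all controls, and replicate 3, from passage 8, was as low as the lowest control. The log2 difference was 0.85 ± 0.38 (edgeR adjusted p = 0.114, n = 3 each). Without 48 h replicate 3 it was 1.19 with an edgeR adjusted p of 0.00285, and with DESeq2 it was 0.87 with an adjusted p of 0.0287. ENSG00000231721 had 18.7, 17.6 and 13.3 CPM at 48 h, against 10.7, 16.1 and 11.4 CPM in controls, with overlapping groups and a log2 difference of 0.38 ± 0.19 (edgeR adjusted p = 0.142, and 0.0472 without control replicate 2).

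**Figure D2:**
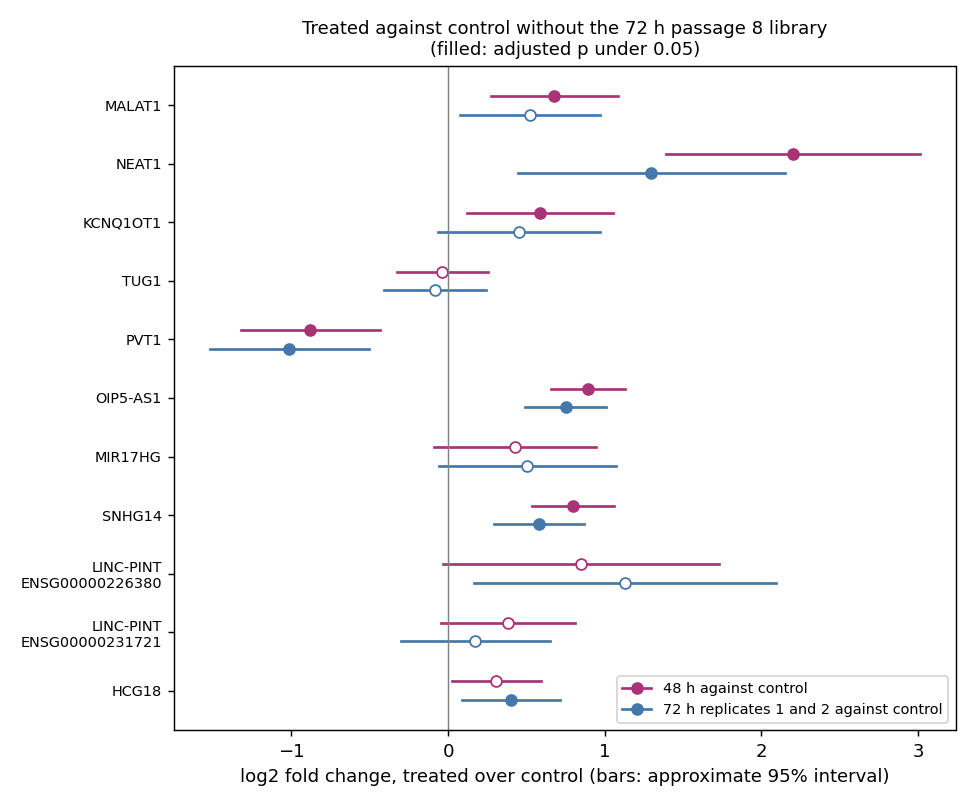
Log2 fold change of treated over control with an approximate 95% interval for each identifier, at 48 h (upper, purple) and in 72 h replicates 1 and 2 (lower, blue), fitted without the 72 h passage 8 library; filled circles passed an adjusted p of 0.05. NEAT1 lies furthest to the right at 2.20 and 1.30, PVT1 is the lowest at -0.88 and -1.01, and TUG1 lies near 0 at both times.

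At 72 h, replicates 1 and 2 were compared with the same 3 controls, so both comparisons share their reference libraries. NEAT1, SNHG14, OIP5-AS1 and HCG18 were higher than in controls and PVT1 was lower. These 5 of 11 identifiers passed the edgeR test, where 36.2% of all tested genes did (18.2% higher and 17.9% lower). MALAT1 and KCNQ1OT1, called at 48 h, did not pass here. Leaving out control replicate 2, control replicate 3 or 72 h replicate 2 took the number higher to 2, and leaving out 72 h replicate 2 took the number lower to 0; a 72 h library then stood alone in its arm and was assumed to vary like the other groups.

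NEAT1 had 977 and 699 CPM in 72 h replicates 1 and 2, against 406, 333 and 287 CPM in controls. Both lay above every control, and it rose by 1.30 ± 0.38 on the log2 scale (SE, edgeR adjusted p = 0.0263). That call was lost without control replicate 2 (edgeR adjusted p = 0.0774), control replicate 3 (0.0810), 72 h replicate 1 (0.157) or 72 h replicate 2 (0.0607), and without the filter on low counts (0.129). MALAT1 had 4464 and 4159 CPM, against 3412, 2368 and 3271 CPM in controls. Both again lay above every control, but its log2 difference of 0.52 ± 0.20 had an edgeR adjusted p of 0.0672. With the replicate number as a block, which pairs libraries of one passage, the edgeR adjusted p of MALAT1 was 0.0493, and without 48 h replicate 2 it was 0.0483.

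OIP5-AS1 had 202 and 213 CPM in 72 h replicates 1 and 2, against 126, 117 and 129 CPM in controls, and rose by 0.75 ± 0.12 (log2, SE, edgeR adjusted p = 0.00117). SNHG14 had 32.7 and 34.0 CPM, against 24.1, 19.7 and 23.5 CPM in controls, and rose by 0.58 ± 0.13 (log2, SE, edgeR adjusted p = 0.00672). For both RNAs the treated libraries were close to each other and apart from controls. PVT1 had 6.13 and 4.95 CPM, against 11.1, 11.2 and 11.4 CPM in controls, and fell by 1.01 (log2, SE 0.23, edgeR adjusted p = 0.00687), a call lost without 72 h replicate 2 (edgeR adjusted p = 0.0730). HCG18 had 44.7 and 60.5 CPM, against 41.5, 41.0 and 37.3 CPM in controls. Replicate 1 lay near the controls and replicate 2 well above them. HCG18 rose by 0.40 ± 0.14 (log2, SE, edgeR adjusted p = 0.0474), a call lost with the replicate block (edgeR adjusted p = 0.0976) and without control replicate 1 (0.0899), 2 (0.0996) or 3 (0.142), 48 h replicate 1 (0.0602) or 72 h replicate 2 (0.381).

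KCNQ1OT1 had 19.3 and 18.8 CPM in 72 h replicates 1 and 2, against 17.8, 13.8 and 10.3 CPM in controls, a log2 difference of 0.45 ± 0.23 (edgeR adjusted p = 0.158). Both treated libraries lay just above the highest control. LINC-PINT ENSG00000226380 had 48.2 and 45.5 CPM, against 17.4, 22.7 and 24.5 CPM in controls, a log2 difference of 1.13 ± 0.42 (edgeR adjusted p = 0.0681). These 2 libraries were close to each other and clear of the controls. In a model of the 2 groups alone, which leaves the 48 h libraries out of the spread, the edgeR adjusted p was 0.000681, and it was 0.0155 without 48 h replicate 2, 0.00349 without 48 h replicate 3 and 0.00913 with DESeq2. TUG1 and LINC-PINT ENSG00000231721 overlapped with controls, at 77.3 and 90.7 CPM and at 14.1 and 14.5 CPM, and MIR17HG had 7.32 and 8.14 CPM, above controls of 4.99, 4.98 and 6.44 CPM, with an edgeR adjusted p of 0.148.

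None of the 11 identifiers, and none of the 15842 tested genes (0%), differed between 72 h replicates 1 and 2 and 48 h at an edgeR adjusted p of 0.05. At an unadjusted p under 0.05 the edgeR test gave 1551 genes, among them NEAT1 alone of the 11. DESeq2 called 74 genes higher and 33 lower at an adjusted p of 0.05, none of the 11 among them. NEAT1 differed by -0.91 ± 0.39 on the log2 scale (edgeR adjusted p = 0.504), with 977 and 699 CPM at 72 h, against 2229, 779 and 1704 CPM at 48 h. The groups overlapped because of 48 h replicate 2. Without that library the NEAT1 difference was -1.23 with an edgeR adjusted p of 0.0407, and 92 genes were called higher and 83 lower.

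The 72 h library of passage 8 held the highest MALAT1 and NEAT1 levels of the 9 libraries. MALAT1 reached 15577 CPM there, against 4464 and 4159 CPM in replicates 1 and 2, 3.61 times their mean. Its share of that library's counts was 1.54% (exact 95% binomial interval 1.53% to 1.54%, counting error only), against 0.437% and 0.409%. MALAT1 was the gene with the most counts of all tested genes there, and ranked 14 and 12 in 72 h replicates 1 and 2 and 10 in controls by its median. NEAT1 reached 4462 CPM, against 977 and 699 CPM, 5.33 times their mean, and took 0.441% of counts (0.438% to 0.444%), where replicates 1 and 2 had 0.0956% and 0.0687%. It ranked 10 by CPM in that library, while it ranked 78 and 142 in replicates 1 and 2 and 459 in controls.

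The other listed RNAs did not follow as one block. LINC-PINT ENSG00000231721 had 40.6 CPM in the 72 h passage 8 library, against 14.5 and 14.1 CPM in the others, 2.84 times their mean. SNHG14 had 55.5 CPM, against 34.0 and 32.7 CPM, and KCNQ1OT1 had 30.4 CPM, against 19.3 and 18.8 CPM. Those were 1.66 and 1.60 times the mean of the others. HCG18 at 55.2, OIP5-AS1 at 198, TUG1 at 73.0 and PVT1 at 4.31 CPM stood between 0.779 and 1.05 times the mean of the others. LINC-PINT ENSG00000226380 had 23.4 CPM, against 48.2 and 45.5 CPM, and MIR17HG had 3.02 CPM, against 7.32 and 8.14 CPM, 0.392 times their mean. Passage 8 was thus high for one LINC-PINT identifier and low for the other at 72 h.

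With at least a 2-fold distance from both other 72 h libraries as the bound, 3 of 11 identifiers were high (MALAT1, NEAT1 and LINC-PINT ENSG00000231721), where 7.68% of 15440 genes tested over all 9 libraries were, and 1 was low (MIR17HG), where 4.49% of genes were. These libraries guided the choice of the genes, so nothing is read from these counts. Just inside and outside the bound on the low side, MIR17HG stood at 0.414 and 0.372 and LINC-PINT ENSG00000226380 at 0.486 and 0.515 of replicates 1 and 2. On the high side LINC-PINT ENSG00000231721 stood at 2.87 and 2.80 times the same libraries and SNHG14 at 1.70 and 1.63 times. Without TMM scaling and under 2 other scalings, log2 ratios ran from 1.81 to 1.90 for MALAT1 and from 2.37 to 2.46 for NEAT1.

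**Figure D3:**
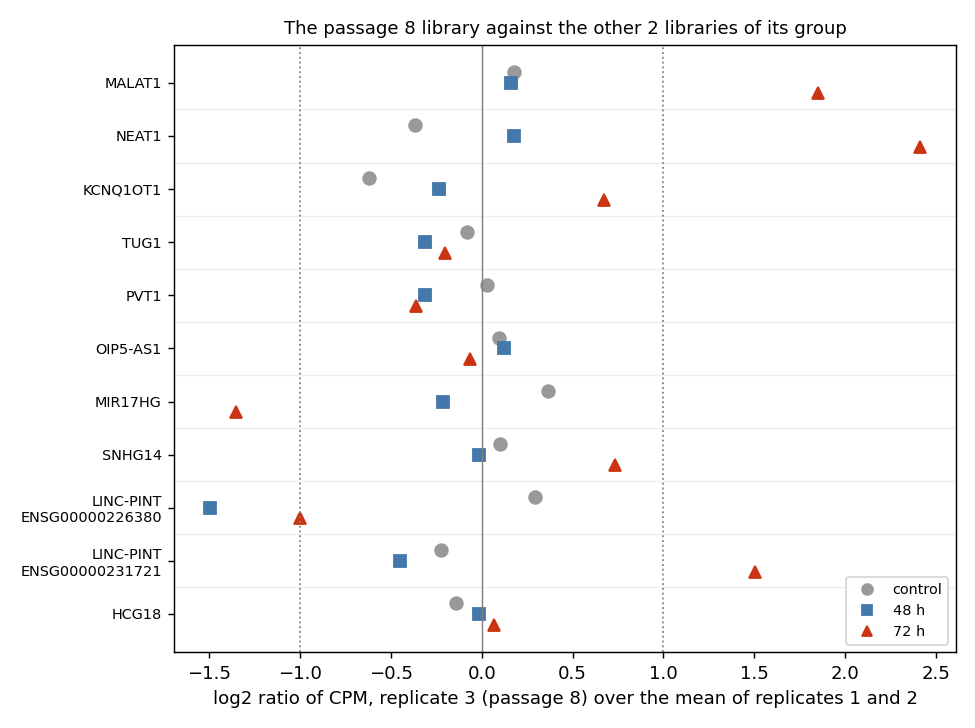
Log2 ratio of CPM in replicate 3 (passage 8) over the mean of replicates 1 and 2 of the same group, for each identifier, in controls (grey circles), 48 h (blue squares) and 72 h (red triangles); dotted lines mark 2-fold. At 72 h MALAT1 (1.85), NEAT1 (2.41) and LINC-PINT ENSG00000231721 lie right of the upper 2-fold line, and LINC-PINT ENSG00000226380 lies left of the lower line at 48 h and on it at 72 h.

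The passage 8 libraries of the other groups did not share the high levels. Relative to the mean of replicates 1 and 2, MALAT1 in passage 8 stood at 1.12 times at 48 h and 1.13 times in controls, and NEAT1 at 1.13 times at 48 h and 0.776 times in controls. LINC-PINT ENSG00000226380 was the exception in the opposite sense, with passage 8 at 1.22 times in controls, 0.355 times at 48 h and 0.500 times at 72 h. Over all genes, 1.92% were at least 2-fold above both others in passage 8 at 48 h and 0.881% in controls, and 2.64% and 1.29% were at most 0.5 times both others.

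Long noncoding RNA genes as a class were more often high in the 72 h passage 8 library than protein-coding genes. With all lengths pooled they were also more often low, an order that did not hold in every length class. Of 1713 tested long noncoding RNA genes, 253 (14.8%) lay at least 2-fold above both other 72 h libraries, and 98 (5.72%) at or below 0.5 times both, with a median log2 ratio of 0.31. Of 12686 protein-coding genes, 840 (6.62%) were as high and 516 (4.07%) as low, with a median log2 ratio of -0.01. The shares that were high, by exon length, were 13.1% to 17.6% for long noncoding and 5.68% to 7.18% for protein-coding genes, so the order of the high shares was the same in each of the 4 length classes. The low shares did not keep their order. Under 2 kb, 7.52% of long noncoding and 9.67% of protein-coding genes were low. The same shares were 4.66% and 4.94% at 2 to 4 kb, and 2.87% and 3.08% at 4 to 8 kb. Over 8 kb they were 4.05% and 2.91%. This compares genes within 1 set of libraries, with no replicate of the 72 h passage 8 library and no test. The 2 classes were not matched for count level, and low counts can cross a 2-fold bound through counting error. The passage 8 libraries of controls and 48 h were not split by class.

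**Figure D4:**
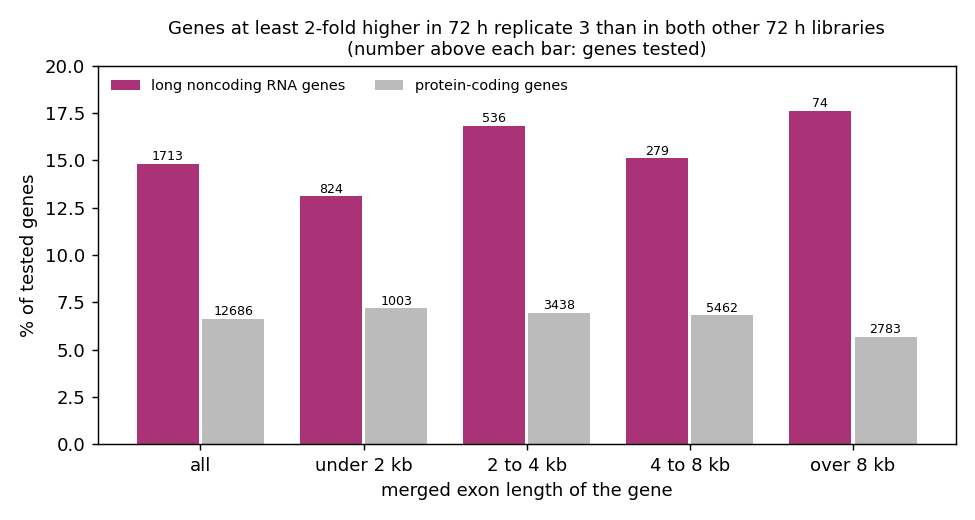
Share of tested genes (%) at least 2-fold higher in the 72 h passage 8 library than in both other 72 h libraries, for long noncoding RNA genes (purple) and protein-coding genes (grey), over all genes and by exon length; the number of genes stands above each bar. Long noncoding RNA genes reach 14.8% over all lengths and 17.6% over 8 kb, against 6.62% and 5.68% of protein-coding genes.

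Other properties of that library moved with these levels. Ribosomal protein mRNAs, 86 genes, took 1.04% of its counts, where controls had 2.5% to 2.92%, the 48 h libraries 1.66% to 2.09% and the rest of the 72 h group 1.60% and 1.85%. Long noncoding RNA genes other than the 11 took 0.932%. Controls had 0.734% to 0.764%, the 48 h libraries 0.719% to 0.862% and the rest of the 72 h group 0.698% and 0.719%. Mitochondrial mRNAs took 0.122%, within the 0.0886% to 0.144% of the 9 libraries, and its total of 16425323 counts was likewise within their range. The 6 fibroblast markers summed to 111 CPM there, the highest of the 9 libraries, with LUM and DCN at or near 0. The 4 endothelial markers also summed highest there, at a low 2.65 CPM, against at most 0.215 CPM in controls and 0.814 CPM at 48 h. The 4 leukocyte markers, at 0.247 CPM, did not, as controls reached 0.286 CPM. The part of these values in the MALAT1 and NEAT1 levels was not tested. If all 3 libraries at 72 h are put together, 7 of 11 identifiers did not overlap with controls, 6 above and 1 below, where 55% of genes did not (27.3% above and 27.7% below). The passage 8 library guided the choice of genes, so nothing is read from that count.

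MALAT1 and NEAT1 each had protein-coding genes with a close pattern over the 9 libraries. These include the 72 h passage 8 library, which guided the choice of the listed RNAs. Both RNAs peaked there, so the likeness rests in part on that library. Likeness was the root mean square difference between log2(CPM + 1) profiles centred on their means. It was taken over 4001 tested genes with a mean of at least 10 CPM and a log2(CPM + 1) range of at least 1. The median gene given below is thus a median over variable genes only. Nearest to MALAT1 were TRPS1, a GATA-type repressor (0.163), HLA-E, a non-classical MHC class I gene (0.164), ANKRD46 (0.209), SPIRE1, an actin nucleator (0.214), and VANGL2, of planar cell polarity (0.221), where the median gene was at 0.903. HLA-E had 699 CPM in the 72 h passage 8 library, against 298 and 272 CPM in the other 72 h libraries. SPIRE1 had 248 CPM there, against 59.4 and 77.9 CPM.

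Nearest to NEAT1 were ODF3B (0.274), EPPK1, the keratin-binding epiplakin (0.299), CDKN2B, the cell-cycle inhibitor p15 and a known target of TGF-β1 (0.331), SULF2, an extracellular sulfatase (0.360), and TRANK1 (0.364), where the median gene was at 1.36. CDKN2B had 15.7, 11.1 and 13.7 CPM in control replicates 1, 2 and 3, 86.5, 36.3 and 114 CPM at 48 h and 66.4, 45.4 and 231 CPM at 72 h. Like NEAT1, all 5 genes were lowest in replicate 2 within both treated groups. They were picked for likeness over these same libraries, so nothing is read from that. EPPK1 had 31.3, 28.8 and 24.0 CPM in controls, 210, 93.8 and 134 CPM at 48 h and 109, 77.4 and 266 CPM at 72 h. The 9 profiles share libraries and group differences, and no test was made of these likenesses.

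**Figure D5:**
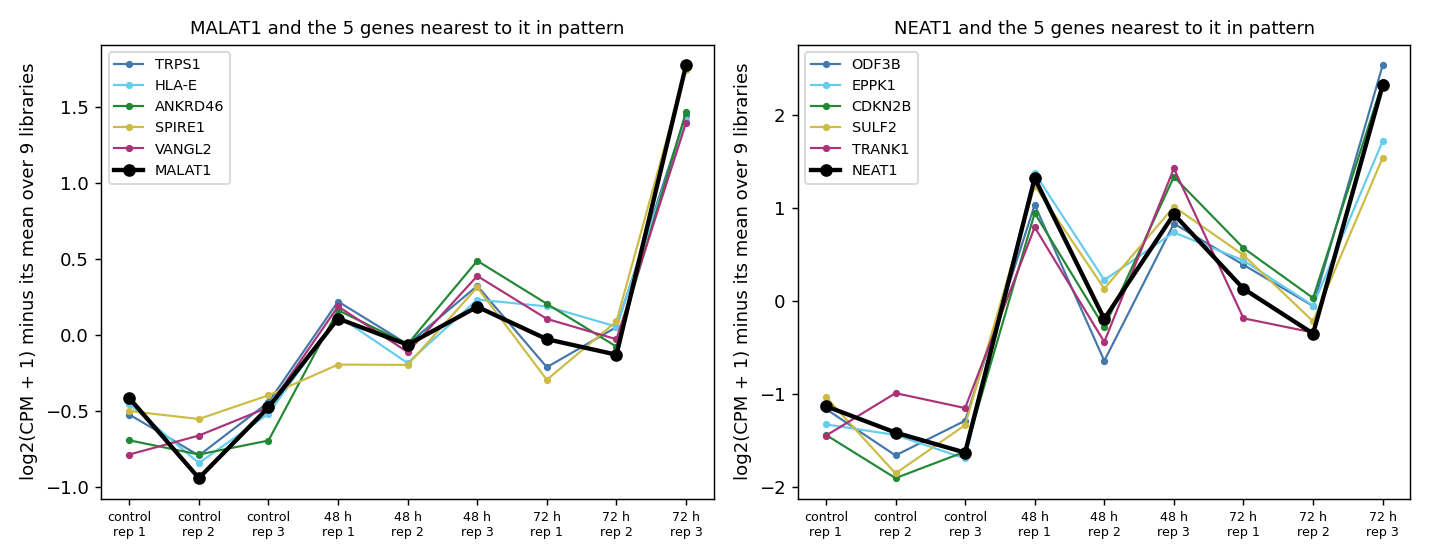
Profiles over the 9 libraries, as log2(CPM + 1) minus its mean, of MALAT1 (left, black) and NEAT1 (right, black) with the 5 nearest genes each; controls, 48 h and 72 h run from left to right. Both RNAs peak in the 72 h passage 8 library (72 h rep 3), and in the NEAT1 panel 48 h replicate 2 dips below the other 48 h libraries.

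Transcripts for the proteins that work with MALAT1 and NEAT1 were mostly lower after treatment. Of 29 tested identifiers of paraspeckle protein genes, 22 fell and 1 rose at 48 h (edgeR adjusted p under 0.05), with a median log2 fold change of -0.53, against -0.00 over all genes. Of all genes tested, 20.1% fell and 19.6% rose at 48 h, and 17.9% fell and 18.2% rose in 72 h replicates 1 and 2. The one that rose was ZC3H6, named after its value was seen. RBM3, a cold-inducible RNA-binding protein, had 97.5, 117 and 113 CPM at 48 h, against 363, 397 and 389 CPM in controls, and fell by 1.80 on the log2 scale (edgeR adjusted p = 3.93e-05). RBMX and RBM14, a protein needed for paraspeckle assembly, also fell, with log2 fold changes of -1.23 and -1.01. In 72 h replicates 1 and 2, 21 of 29 fell and 0 rose, with a median of -0.57, and 8 fell when 72 h replicate 2 was left out.

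Of 25 tested nuclear speckle protein genes, 13 fell and 0 rose at 48 h, with a median of -0.34. The splicing factors SRSF6 and SRSF3 and the speckle protein pinin (PNN) fell, with log2 fold changes of -0.88, -0.84 and -0.85. SRSF3 had 273, 282 and 333 CPM at 48 h, against 520, 528 and 541 CPM in controls. At 72 h 13 of 25 fell as well, and 6 without 72 h replicate 2. Another list held 17 genes for processing or modifying MALAT1 and NEAT1, namely RNase P subunits, RNase Z, cleavage factor Im and m6A methyltransferases. Of these 17, 13 fell and 0 rose at 48 h, with a median of -0.55. RPP25, RPP40 and POP1, all RNase P subunits, fell, with log2 fold changes of -1.40, -1.21 and -1.04. At 72 h 10 of 17 fell, and 5 without 72 h replicate 2. Beside these lists, 20.1% of all genes fell at 48 h and 17.9% at 72 h.

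Host genes of snoRNAs, which carry the small RNAs in their introns, were mostly lower. Of 24 tested, 15 fell and 1 rose at 48 h, where 20.1% of all genes fell and 19.6% rose, with a median log2 fold change of -1.05. At 72 h 16 fell and 1 rose, where 17.9% of all genes fell and 18.2% rose, with a median of -1.07. SNHG1 had 51.4, 61.2 and 50.5 CPM at 48 h, against 233, 289 and 289 CPM in controls, and fell by 2.31 (log2, edgeR adjusted p = 1.68e-05). SNHG8 fell by 2.11 and SNHG4 fell by 1.62 on the same scale. The host that rose was SNHG18, by 0.76 at 48 h, named after its value was seen. Ribosomal protein mRNAs, often co-regulated with these hosts, also took a smaller share of counts in the treated libraries, as given above, and their part was not tested.

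Of 23 other tested long noncoding RNAs, 11 rose and 3 fell at 48 h, where 19.6% of all genes rose and 20.1% fell, with a median log2 fold change of 0.72. At 72 h 7 rose and 3 fell, where 18.2% of all genes rose and 17.9% fell, with a median of 0.53. Without control replicate 1 or control replicate 2 the number that rose at 48 h was 7. The hosts of microRNAs MIR100HG, MIR22HG and MIR31HG rose by 1.99, 1.91 and 1.74. MIR100HG had 13.2, 26.6 and 28.2 CPM at 48 h, against 4.39, 6.75 and 5.94 CPM in controls, and 58.0 CPM in the 72 h passage 8 library, against 26.2 and 42.3 CPM in the other 72 h libraries. MIR22HG and MIR31HG, at 71.5 and 22.6 CPM, were not raised in the passage 8 library above the other 72 h libraries, which had 85.5 and 105 CPM for MIR22HG and 22.4 and 22.8 CPM for MIR31HG. The 3 that fell were DLEU1, DLEU2 and LINC00511, named after their values were seen.

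Genes beside or across from the listed RNAs did not simply follow them. OIP5, a centromere protein gene whose 3′ end overlaps OIP5-AS1 by 470 bases on the opposite strand, had 4.88, 4.65 and 5.70 CPM at 48 h, against 7.58, 10.9 and 11.9 CPM in controls. It fell by 0.99 ± 0.31 (log2, edgeR adjusted p = 0.0263) where OIP5-AS1 rose, and had a log2 fold change of -1.62 in 72 h replicates 1 and 2. NUSAP1, a spindle protein gene beyond OIP5, fell at both times, with log2 fold changes of -1.21 and -1.69. In the SNHG14 region, SNRPN rose at 48 h and 72 h, with log2 fold changes of 1.00 and 1.29, and UBE3A, the ubiquitin ligase gene that SNHG14 runs across, fell, with -0.37 and -0.40. CDKN1C, a cell-cycle inhibitor in the imprinted domain of KCNQ1OT1, had 13.2, 12.2 and 10.1 CPM at 48 h, against 4.03, 4.66 and 6.22 CPM in controls, and rose at both times, with log2 fold changes of 1.26 and 1.30. MYC, upstream of PVT1, fell by 0.73 at 48 h (edgeR adjusted p = 0.0233), and its log2 difference of -0.50 at 72 h did not pass (edgeR adjusted p = 0.135).

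Around MALAT1 and NEAT1, LTBP3, a TGF-β binding protein, fell by 0.45 at 48 h (edgeR adjusted p = 0.0467), while FRMD8 (log2 difference 0.15) did not pass. At 72 h FRMD8 at 0.16 and LTBP3 at -0.29 did not pass. MORC2, which starts beside TUG1, had log2 differences of 0.07 at 48 h and 0.11 at 72 h, and MKLN1, which starts across from LINC-PINT ENSG00000231721, of 0.07 and -0.09. Neither passed. Near HCG18, TRIM39 fell by 0.59 at 48 h and had a difference of -0.39 at 72 h (edgeR adjusted p = 0.0506), and TRIM26 had a difference of -0.31 at 48 h and fell by 0.69 at 72 h. Of the 12 neighbours reported, 2 rose and 6 fell at 48 h and 2 rose and 4 fell at 72 h, where 19.6% of all genes rose and 20.1% fell at 48 h and 18.2% rose and 17.9% fell at 72 h. The number that fell at 48 h was 2 without control replicate 2, control replicate 3 or 48 h replicate 2 and with all 9 libraries in the model, and 3 without 48 h replicate 1. The number that fell at 72 h was 2 without control replicate 2, control replicate 3 or 72 h replicate 2.

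MIR17HG is driven by MYC and E2F proteins, and its microRNAs are known to act on E2F1, BCL2L11, CDKN1A and TGFBR2 among others. Of 10 reported genes of this group, 5 fell and 1 rose at 48 h, and 4 fell and 1 rose at 72 h, where 20.1% and 17.9% of all genes fell. With all 9 libraries in the model, 3 fell at 48 h. E2F1 had 33.8, 55.0 and 30.7 CPM at 48 h, against 131, 145 and 141 CPM in controls, and fell at 48 h and in 72 h replicates 1 and 2, with log2 fold changes of -1.80 and -1.55. E2F2 (-3.00 and -2.97), E2F3 (-0.44 and -0.35) and BCL2L11, a pro-apoptotic gene (-1.37 and -1.84), fell at both times as well. CDKN1A, which encodes the inhibitor p21, had 419, 413 and 278 CPM at 48 h, against 91.6, 80.6 and 91.6 CPM in controls, and rose at both times, with log2 fold changes of 2.08 and 2.20. SMAD4, TGFBR2, THBS1 and CTGF passed at neither time, with log2 differences of -0.31 to 0.61 at 48 h and -0.59 to 0.13 at 72 h.

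In the 72 h passage 8 library, where MIR17HG was low, MYC and E2F1 were also low. MYC had 25.6 CPM there, against 132 and 160 CPM in replicates 1 and 2, and E2F1 had 7.40 CPM, against 65.2 and 29.2 CPM. E2F2 had 1.54 CPM, against 6.42 and 2.22 CPM. E2F3, at 30.5 CPM, was less far below the 39.1 and 35.3 CPM of those replicates. BCL2L11, at 5.30 CPM, lay above their 3.77 and 2.28 CPM. CDKN1A, at 354 CPM, was close to the 428 and 376 CPM of replicates 1 and 2. These are values of 1 library, with no test.

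Some reads of the listed genes may belong to others. The largest share of exon bases lying across from an exon on the opposite strand was 7.74% for LINC-PINT ENSG00000231721, 5.38% for TUG1, 4.49% for MALAT1, 4.4% for HCG18 and 3.71% for OIP5-AS1. For NEAT1 and MIR17HG it was 0%. No source used here gives the strand setting of the counting, so reads of these antisense partners cannot be told apart. Another identifier, AC016831.6, runs through both LINC-PINT genes on the same strand and had no entry in the count files. It shares 30.4% and 21.7% of the exon bases of ENSG00000226380 and ENSG00000231721.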

How the data were processed

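RNA was measured in 9 libraries of UPCI-SCC-040. Per the labels' protocols, total RNA was isolated with RNeasy columns and sequenced from NEBNext Ultra libraries. Each deposited file holds 1 raw read count for every Ensembl gene. The submitters' processing notes name build hg38 and the tools featureCounts 1.5.0-p1, STAR 2.5.2a, FastQC 0.11.5 and bcl2fastq 2.17.1.14. Which annotation release, strand setting and rule for multiple alignments the authors used is not given in the sources used here.

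Symbols came from GENCODE 29, which held 57895 of 58233 identifiers. The 338 others held 0.0145% to 0.0202% of counts per library. Replicates differed by more than sampling noise (chi-square per degree of freedom 8.99 to 159).

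Members, gene lists and all settings were chosen with earlier results of these data known. The text names every listed RNA, the 3 called members of each list with the largest change at 48 h and at least 1 CPM, the tested genes of the microRNA and neighbour lists (1 gene of each is not reported here), and the 5 genes nearest to MALAT1 and to NEAT1. Tests used edgeR 4.0.16 under R 4.3.3 on 8 libraries, without 72 h replicate 3, with TMM scaling, filterByExpr, robust quasi-likelihood F tests, 5 residual degrees of freedom and Benjamini-Hochberg adjustment over 15842 genes at 0.05. The SE is approximate, the size of the log2 fold change divided by √F. CPM are on TMM-scaled sizes of all 9 libraries. The procedure was tested on simulated data.

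The 16 alternatives were DESeq2 1.42.0, other size factors in edgeR, no filter, a minimum of 1 CPM in 3 libraries, the replicate block, only the groups compared, all 9 libraries, and omission of each library. The labels give same-numbered libraries the same passage, which pairs them. Their deviations from group means correlated at -0.0646 to 0.546.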

Additional observations from a re-analysis of the deposited data

How the results depend on the processing

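Across 16 alternatives, 488 of 528 values for single listed RNAs kept their side of the threshold, 22 lost a call and 18 gained one. No called listed RNA changed direction in any of the 16. At 48 h, 5 listed genes were higher, and 3 with all 9 libraries in the model. For 72 h replicates 1 and 2 against 48 h, 0 genes were called, but DESeq2 called 74 higher and 33 lower, and without the filter 261 were higher and 154 lower. The cause was not tested. The replicate block changed the 72 h calls of MALAT1 (edgeR adjusted p = 0.0493) and HCG18 (0.0976) and no other call of a listed RNA. It left 3055 genes higher and 3059 lower at 48 h and 2667 and 2568 at 72 h.

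Leaving out 1 library gave 2177 to 3209 genes higher and 2355 to 3168 lower at 48 h, with 4 to 5 listed genes higher and 1 lower. For 72 h replicates 1 and 2 against control it gave 1743 to 3161 higher and 1495 to 3124 lower, with 2 to 6 listed genes higher and 0 to 1 lower. The lowest counts came without 72 h replicate 2, where the lone 72 h library was assumed to vary like the other groups. For 72 h against 48 h it gave 0 to 92 higher and 0 to 83 lower, with 0 listed genes higher and 0 to 1 lower, the highest without 48 h replicate 2. The MALAT1 call at 72 h was gained with DESeq2 (adjusted p = 0.0158), without the filter (0.00288) and with the 2 groups alone (0.0456). Of the listed RNAs, MIR17HG had the fewest counts, 955 over 9 libraries and 49 to 195 in a single one, so counting error is largest there.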
